A study of Cavia porcellus with 72 samples.

Results

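The genes described here encode 9 sialyltransferases, the enzymes that attach sialic acid to the sugar chains of lipids and proteins, and B4GALNT1, which extends the same lipid chains. The 10 listed symbols were looked up in the gene count tables of female guinea pig hippocampus from 3 generations, F1, F2 and F3. Of the 10 genes, 9 stand in all 3 tables, which share 11446 genes. ST3GAL3 was found in the F2 table only and is not analysed here in F1 and F3. The list was chosen by family with the sGC effects of these libraries known, in which ST3GAL5 stood below control in F1 and F3. The values within each generation, their differences between generations and their mean over generations are therefore a description.

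Pregnant F0 guinea pigs received betamethasone, a synthetic glucocorticoid (sGC), or vehicle (control). F1 offspring were exposed in the womb. F1 males and then F2 males were mated with females from outside the experiment, so F2 and F3 descend from the treated pregnancy through the paternal line. RNA was sequenced from the right hippocampus of juvenile females on postnatal day 40, from 6 control and 5 sGC animals in F1, 6 and 6 in F2, and 6 and 7 in F3. Each library is a separate animal.

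Gangliosides are sialic acid-bearing glycolipids that are abundant in the outer membrane of neurons. They are built on lactosylceramide in a branching series of steps: ST3GAL5 makes the first ganglioside, GM3, ST8SIA1 and ST8SIA5 add further sialic acids to it, and B4GALNT1 lengthens the chain towards the complex gangliosides that dominate in the brain. ST3GAL2 and its relatives then cap the longer chains, which in mature brain yields GD1a and GT1b.

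Between 13507449 and 19767033 reads were counted per library. Levels are counts per 1e+06 reads (CPM), with library sizes scaled by TMM within a generation. All listed genes passed edgeR's filter on low counts wherever they were in a table. Reads per library ranged from 74 for ST8SIA1 to 6984 for ST8SIA3. ST8SIA1, with 74 to 210 reads, and ST3GAL1, with 104 to 259, rest on the fewest reads and have the widest errors within each generation. Of the 10 markers fixed for hippocampal excitatory neurons, 9 were in the tables, ZBTB20 was not, and their summed level lay between 8378 and 12407 CPM. The sGC libraries F1 replicates 4 and 5, F2 replicate 6, and F3 replicates 5 and 6 carry the numbers 32 to 36 in the labels, out of sequence with the rest of their generation, and no control library does. Results were also computed without these libraries. The F2 table differs from the other two in the genes it lists, since it lacks 159 genes that both others hold, and in many levels: 176 of 11390 genes differed more than 4-fold between F2 and F1 controls, and 0 did between F3 and F1 controls. Tests of levels between F2 and the other generations were run but are therefore not reported.

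**Figure D1:**
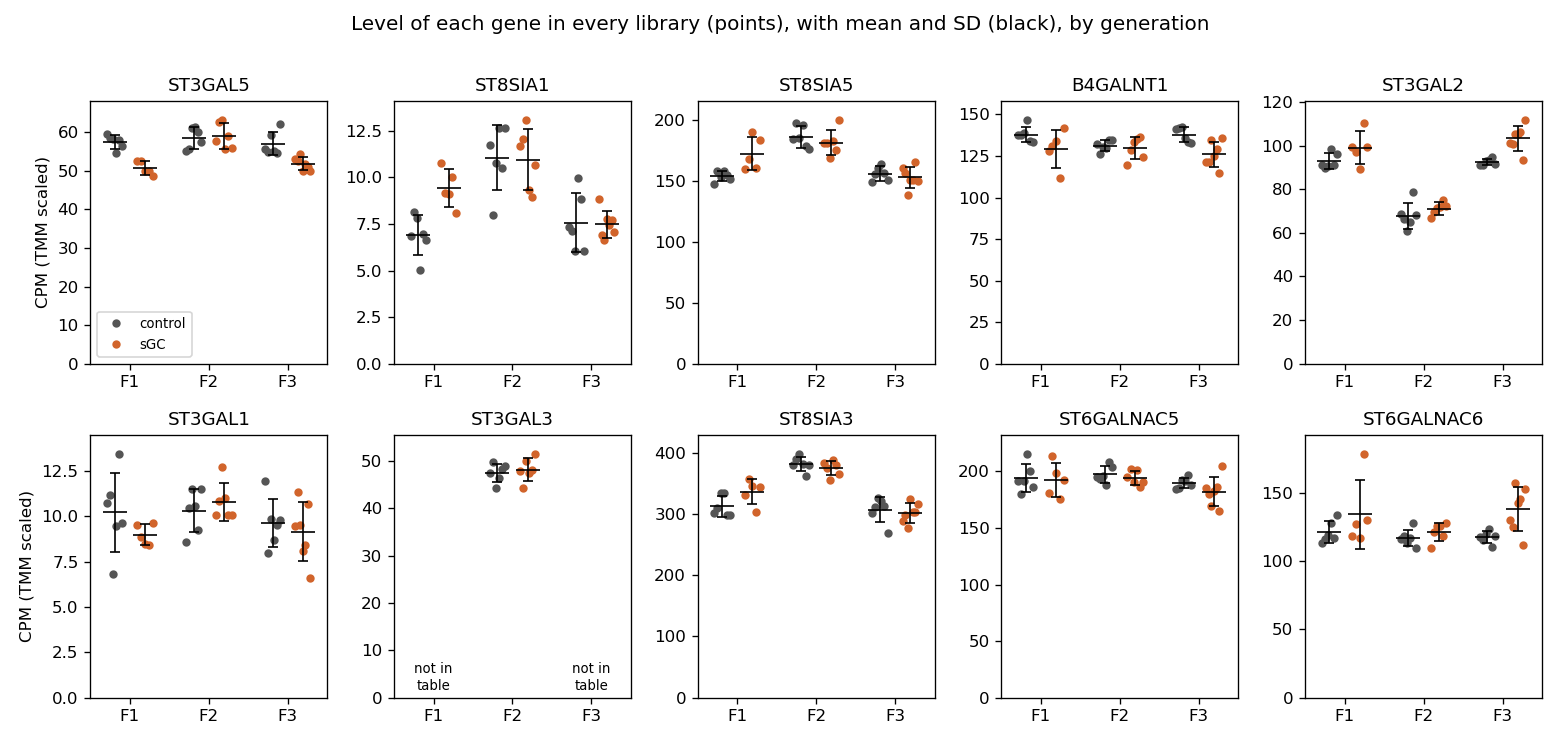
Level of each gene in CPM (vertical axes, from 0) in every library, with control animals in grey and sGC animals in orange for F1, F2 and F3, and the mean with SD in black. The sGC animals of F1 and F3 lie below all control animals of their generation for ST3GAL5, and those of F1 above all control animals for ST8SIA5.

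Of the 9 genes measured in F1, 1 passed an adjusted p of 0.05 in edgeR's quasi-likelihood test, ST3GAL5, where 2.03% of the 11377 genes tested did, 1.58% higher and 0.448% lower in sGC animals. Without the libraries numbered 32 to 36, 0 listed genes passed in F1, where 119 of all genes did in place of 231. None of the 10 passed in F2, where 0% of 11414 genes did, and 2 of 9 passed in F3, ST3GAL2 and ST3GAL5, against 5.01% of 11359 genes, 2.19% higher and 2.82% lower. Without the libraries numbered 32 to 36, 2 passed in F3 as well, ST3GAL2 and ST6GALNAC6, where 327 of all genes did in place of 569. The groups did not overlap for 2 of 9 genes in F1, 0 of 10 in F2 and 1 of 9 in F3, where they did not for 4.41%, 0.403% and 2.71% of all genes. At an unadjusted p below 0.05, the counts were 3, 0 and 4 genes, against 19.6%, 6.55% and 20.8% of all genes. The median log2 fold change of the listed genes was 0.09 in F1, 0.00053 in F2 and -0.03 in F3, and the median of all genes was -0.0055, -0.00041 and 0.0048. In F2 the log2 fold changes of all 10 genes lay between -0.04 and 0.07.

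**Figure D2:**
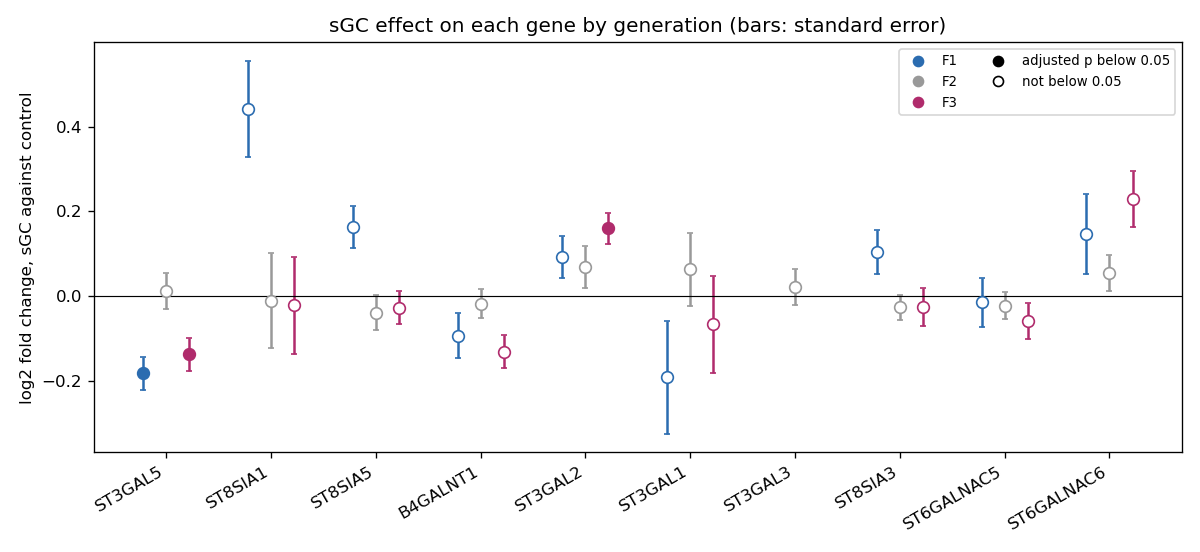
log2 fold change of sGC against control (vertical axis) for each gene in F1, F2 and F3, with the standard error as bars and filled points where the adjusted p was below 0.05. The points of F2 lie between -0.04 and 0.07, and those of F1 spread from -0.19 for ST3GAL1 to 0.44 for ST8SIA1.

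ST3GAL5, the GM3 synthase at the entry of the ganglio-series, was lower in sGC animals of F1 and F3. In F1, control animals had 54.6 CPM at the lowest, a median of 58.1 and 59.5 at the highest, and the 5 sGC animals had 52.5, 52.6, 50.03, 49.9 and 48.6 CPM. Every sGC animal lay below every control animal, and sGC replicates 4 and 5, which are among the libraries numbered 32 to 36, were the lowest. Control animals averaged 57.5 ± 1.74 CPM (SD, n = 6) and sGC animals 50.7 ± 1.75 CPM (SD, n = 5), for a log2 fold change of -0.18 ± 0.0384 (SE, adjusted p = 0.0307 in edgeR). Without the libraries numbered 32 to 36, it was -0.15 with an adjusted p of 0.0926 in edgeR. In edgeR fits that left out 1 animal in turn, the adjusted p ranged from 0.0275 to 0.0855 and stayed below the threshold in 4 of 11, those without control replicate 4 or without sGC replicates 1, 2 or 4.

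In F3, ST3GAL5 had 54.6 CPM at the lowest, a median of 55.5 and 62.1 at the highest in control animals, and 49.9, 51.8 and 54.4 CPM (lowest, median and highest) in sGC animals. All 7 sGC animals again lay below all 6 control animals, although the highest sGC and the lowest control animal were 54.4 and 54.6 CPM. The log2 fold change was -0.14 ± 0.0391 (SE) between means of 57.0 ± 3.03 (SD, n = 6) and 51.8 ± 1.68 CPM (SD, n = 7), and the adjusted p of 0.04996 in edgeR stood at the edge of the threshold. It passed in 2 of the 13 edgeR fits that left out 1 animal, those without control replicate 5 or sGC replicate 3, with adjusted p between 0.0405 and 0.101. It was 0.139 in edgeR without the libraries numbered 32 to 36. The F2 values overlapped over nearly their whole range: control animals had 55.1, 58.8 and 61.4 CPM and sGC animals 55.6, 58.3 and 63.2 CPM (lowest, median and highest), a log2 fold change of 0.01 ± 0.0426 (SE, adjusted p = 0.973 in edgeR).

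The difference between generations was computed as an interaction over all 36 libraries. It rests on sGC effects that were known when the genes were listed. For every listed gene, in contrasts with F2, generation cannot be told apart from how the F2 table was made. The 95% intervals are normal intervals from the standard error and, unlike the adjusted p, are not adjusted over all genes. An interval that leaves out 0 is therefore not a pass. The sGC effect on ST3GAL5 in F2 exceeded that in F1 by 0.19 on the log2 scale (95% interval 0.08 to 0.29, adjusted p = 0.0909 in edgeR), and that in F3 was 0.15 below that in F2 (95% interval -0.25 to -0.04, adjusted p = 0.501 in edgeR). Between F3 and F1 it differed by 0.04 (95% interval -0.07 to 0.14, adjusted p = 0.823 in edgeR). No listed gene passed in any of the 3 contrasts, where 0.272% (F2 against F1), 0% and 0% of 11390 genes did. In 36 edgeR fits that each left out 1 animal, the F2 to F1 difference of ST3GAL5 had an adjusted p of 0.0481 to 0.167 and that of ST8SIA5 of 0.0408 to 0.193. Each passed in 1 fit, without F2 sGC replicate 6, in which the number of all genes past the threshold also went from 31 to 216.

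ST8SIA1, the GD3 synthase that adds sialic acid to GM3 and so opens the b-series, had the largest log2 fold change of the listed genes in F1. Control animals had between 5.04 and 8.15 CPM with a median of 6.89, and the sGC animals 10.8, 9.18, 9.12, 10.02 and 8.08 CPM. Of these, 4 lay above all control animals, and sGC replicate 5 fell just under the highest control animal. The means of 6.91 ± 1.09 (SD, n = 6) and 9.43 ± 1.01 CPM (SD, n = 5) correspond to a log2 fold change of 0.44 ± 0.114 (SE) that did not pass, with an adjusted p of 0.0627 in edgeR. Leaving out 1 animal in turn kept it between 0.37 and 0.50, with adjusted p of 0.0668 to 0.116 in edgeR. In F2 control and sGC animals had 11.1 ± 1.75 (SD, n = 6) and 11.0 ± 1.62 CPM (SD, n = 6), and in F3 7.57 ± 1.57 (SD, n = 6) and 7.49 ± 0.730 CPM (SD, n = 7). Their log2 fold changes were -0.01 ± 0.112 (SE) and -0.02 ± 0.114 (SE), with adjusted p of 0.991 and 0.940 in edgeR. The effect in F2 was 0.46 below that in F1 (95% interval -0.80 to -0.12, adjusted p = 0.171 in edgeR) and that in F3 was 0.47 below it (95% interval -0.81 to -0.13, adjusted p = 0.253 in edgeR).

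ST8SIA5 adds sialic acid to gangliosides that already carry it, towards the c-series and the most sialylated forms. In F1, control animals had 148 CPM at the lowest, a median of 154 and 159 at the highest, and sGC animals had 160.0, 168, 189.9, 161 and 184 CPM. All 5 sGC animals were above all controls. It is 1 of the 2 listed genes whose groups did not overlap in F1, with ST3GAL5. Its mean was 154 ± 4.02 CPM in control (SD, n = 6) and 172.5 ± 13.7 in sGC animals (SD, n = 5), with a log2 fold change of 0.16 ± 0.0489 (SE, adjusted p = 0.0931 in edgeR). When 1 animal was left out the adjusted p ran from 0.0448 to 0.175 in edgeR and passed in 1 of 11 fits, without sGC replicate 4, where 342 of all genes passed in place of 231. In F2 the means were 186 ± 9.00 and 181.5 ± 10.3 CPM (SD, n = 6 each) and in F3 156 ± 5.84 (SD, n = 6) and 153 ± 8.69 CPM (SD, n = 7), with log2 fold changes of -0.04 and -0.03 and overlapping groups. The effect was 0.21 lower in F2 than in F1 (95% interval -0.33 to -0.09, adjusted p = 0.0909 in edgeR) and 0.20 lower in F3 than in F1 (95% interval -0.32 to -0.08, adjusted p = 0.182 in edgeR). With 1 animal left out, the F3 to F1 difference had an adjusted p of 0.0377 to 0.353 in edgeR and passed in 1 of 36 fits, without F1 sGC replicate 4, in which the number of all genes past the threshold went from 0 to 458.

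ST8SIA3, a brain sialyltransferase that joins sialic acids to one another on glycoproteins and glycolipids, ranged from 299 to 335 CPM in F1 controls (median 306), and the sGC animals had 332, 357, 346, 303 and 344 CPM. Of the sGC animals, 3 lay above all controls. The log2 fold change of 0.11 ± 0.0520 (SE) did not pass (adjusted p = 0.281 in edgeR). It was -0.03 in both F2 and F3, and the differences of these effects from F1, both -0.14, had adjusted p of 0.258 and 0.335 in edgeR. For these 3 genes, none of the 9 tests within a generation passed. Outside the 10 genes, ST8SIA2 and ST8SIA4, which build polysialic acid, had log2 fold changes of 0.15 each in F1, 0.07 and 0.01 in F2, and -0.15 and 0.05 in F3, and neither passed (adjusted p from 0.277 to 0.986 in edgeR).

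B4GALNT1, the GM2/GD2 synthase that commits simple gangliosides to the complex series, was lower on average in sGC animals of every generation without passing in any. In F3 the control animals had 133 CPM at the lowest, 138 in the median and 142 at the highest, and the sGC animals 115, 124.97 and 136 CPM. All 7 sGC animals were below the control mean and 5 were below every control animal. The log2 fold change was -0.13 ± 0.0397 (SE) between means of 138 ± 4.43 (SD, n = 6) and 126 ± 7.56 CPM (SD, n = 7), with an adjusted p of 0.0632 in edgeR, and of 0.162 without the libraries numbered 32 to 36. With 1 animal left out, the adjusted p lay between 0.0398 and 0.123 in edgeR and passed in 2 of 13 fits, those without sGC replicates 3 or 7. In F1 control animals had 134, 137.5 and 146.5 CPM (lowest, median and highest), and the sGC animals had 128.1, 131, 134, 111 and 142 CPM. The log2 fold change there was -0.09 ± 0.0530 (SE, adjusted p = 0.347 in edgeR), and -0.04 without sGC replicate 4, the lowest animal. In F2 it was -0.02 ± 0.0351 (SE, adjusted p = 0.939 in edgeR).

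ST3GAL2, which caps the longer chains to form GD1a and GT1b, was the other gene that passed in F3. Control animals lay in a narrow band, with 90.9 CPM at the lowest, a median of 92.5 and 94.8 at the highest, and sGC animals had 93.5, 105 and 112 CPM. Of the 7 sGC animals, 6 were above every control, and replicate 6, one of the libraries numbered 32 to 36, lay within the control range. Means were 92.5 ± 1.48 (SD, n = 6) and 103 ± 5.67 CPM (SD, n = 7), that is, a log2 fold change of 0.16 ± 0.0369 (SE, adjusted p = 0.0179 in edgeR). It passed in all 13 edgeR fits that left out 1 animal, with adjusted p between 0.00459 and 0.0489, and without the libraries numbered 32 to 36, with an adjusted p of 0.0187 in edgeR. In F1 the control animals ranged from 89.8 to 98.6 CPM (median 91.1) and the sGC animals had 99.2, 97.1, 89.3, 110 and 99.2 CPM. The F1 log2 fold change was 0.09 ± 0.0495 (SE, adjusted p = 0.319 in edgeR) and was 0.05 without sGC replicate 4. In F2, ST3GAL2 had 67.9 ± 5.97 and 71.2 ± 2.86 CPM (SD, n = 6 each) and a log2 fold change of 0.07 ± 0.0496 (SE, adjusted p = 0.809 in edgeR). No difference of its effect between generations passed, with adjusted p from 0.700 to 0.865 in edgeR.

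ST3GAL1 works mainly on the O-linked sugars of proteins and ST3GAL3 on their N-linked sugars. ST3GAL1 had 6.83, 10.2 and 13.4 CPM in F1 controls (lowest, median and highest), and all 5 sGC animals lay within that range, at 9.55, 8.86, 8.47, 8.39 and 9.61 CPM. Its log2 fold changes were -0.19 ± 0.133 in F1 (SE), 0.06 ± 0.0852 in F2 (SE) and -0.07 ± 0.115 in F3 (SE), with adjusted p from 0.448 to 0.909 in edgeR. The F1 value was -0.09 without control replicate 5, the highest animal. ST3GAL3, in F2 only, had 44.4, 47.9 and 49.8 CPM in control and 44.3, 48.0 and 51.5 CPM in sGC animals (lowest, median and highest). The groups overlapped fully, with a log2 fold change of 0.02 ± 0.0418 (SE, adjusted p = 0.939 in edgeR).

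ST6GALNAC5 and ST6GALNAC6 add sialic acid to an inner sugar of complex gangliosides and so make the alpha-series. ST6GALNAC6 had 110, 118 and 124 CPM (lowest, median and highest) in F3 controls and 112, 143.2 and 157 CPM in F3 sGC animals. Of the 7 sGC animals, 6 were above every control animal and replicate 6 was within the control range, as for ST3GAL2. The log2 fold change was 0.23 ± 0.0654 (SE, adjusted p = 0.0525 in edgeR), and 0.27 with an adjusted p of 0.0187 in edgeR without the libraries numbered 32 to 36. With 1 animal left out, the adjusted p lay between 0.00549 and 0.107 in edgeR and passed in 2 of 13 fits, those without sGC replicates 2 or 6. In F1, sGC replicate 4 stood apart at 179 CPM, where the other sGC animals had 117 to 130 CPM and controls 113 to 134 CPM. The F1 log2 fold change of 0.15 ± 0.0941 (SE, adjusted p = 0.409 in edgeR) was 0.03 without that library. In F2 it was 0.05 ± 0.0416 (SE, adjusted p = 0.812 in edgeR). ST6GALNAC5 had log2 fold changes of -0.01, -0.02 and -0.06 in F1, F2 and F3, with overlapping groups and adjusted p from 0.470 to 0.912 in edgeR.

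Averaged over the 3 generations in 1 edgeR fit, 4 of 9 genes passed, against 8.39% of 11390 genes, 5.00% higher and 3.40% lower. ST3GAL5 (-0.10, adjusted p = 0.00677) and B4GALNT1 (-0.08, adjusted p = 0.0442) were lower in edgeR, and ST3GAL2 (0.11, adjusted p = 0.0119) and ST6GALNAC6 (0.15, adjusted p = 0.0340) were higher. None of the 4 passed without the libraries numbered 32 to 36, where adjusted p ran from 0.0859 to 0.166 in edgeR and 46 of all genes passed. The log2 values there were -0.087 for ST3GAL5, -0.064 for B4GALNT1 and 0.093 for ST3GAL2. The smaller number of sGC animals and the absence of these particular libraries cannot be told apart. In 36 edgeR fits that each left out 1 animal, ST3GAL5 and ST3GAL2 passed in 36, ST6GALNAC6 in 28 (adjusted p from 0.0156 to 0.0645) and B4GALNT1 in 16 (0.0248 to 0.0894). With a replicate block nested in generation, B4GALNT1 had an adjusted p of 0.0502 in edgeR and the other 3 passed.

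Levels in control animals were compared between F3 and F1, between which no such gap was seen. None of 9 genes passed, against 0.0176% of all genes, and the log2 differences lay between -0.10 for ST3GAL1 and 0.12 for ST8SIA1, with adjusted p of 0.876 or more in edgeR. With TMM scaling over all 36 libraries, ST3GAL5 had control means of 58.9, 58.0 and 57.8 CPM in F1, F2 and F3. For ST8SIA5 they were 158, 185 and 158 CPM, and for ST3GAL2 95.0, 67.3 and 93.8 CPM. Differences of F2 from the other generations cannot be told apart from differences in how its table was made. Within a group, the coefficient of variation was 2.87% to 5.6996% for ST3GAL5 and 9.82% to 20.9% for ST8SIA1.

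The other genes of ganglioside and sialic acid metabolism were taken as 6 lists of 71 symbols in all, of which 54, 55 and 55 were tested in F1, F2 and F3. None passed in F1 or F2 and 2 passed in F3, against 2.03%, 0% and 5.01% of all genes. In edgeR, 9, 2 and 14 had an unadjusted p below 0.05, against 19.6%, 6.55% and 20.8% of all genes. Medians over the lists were -0.01, 0.0022 and -0.01 on the log2 scale.

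The 2 that passed in F3 were both higher in sGC animals. SPTSSA, a small subunit of serine palmitoyltransferase, which starts ceramide synthesis, had 23.1 to 25.9 CPM in control and 28.1 to 31.2 CPM in sGC animals, without overlap. Its log2 fold change was 0.28 ± 0.0434 (SE, adjusted p = 0.00260 in edgeR). B3GALT4, which adds the galactose after the B4GALNT1 step to give GM1 and GD1b, had 200 to 240.0 CPM in control and 250.4 to 298 CPM in sGC animals, also without overlap. Its log2 fold change was 0.25 ± 0.0459 (SE, adjusted p = 0.00634 in edgeR). In the F2 table its control mean was 35.7 CPM, against 228 in F1 and 225 in F3, and its reads are uncertain between tables.

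Among synthesis genes outside the 10, UGCG, which makes the glucosylceramide at the base of all gangliosides, was not past the threshold in F3, with a log2 fold change of -0.13 (adjusted p = 0.0929 in edgeR). UGCG was named after its value was seen. All 4 tested genes of sialic acid supply had negative log2 fold changes in F3, with a median of -0.10, but 0 passed. Of the 4, 3 had an unadjusted p below 0.05 in edgeR, against 20.8% of all genes. The median was -0.10 in F1 as well, with 3 of 4 negative, and 0.0094 in F2. In F1 the smallest p-values of the lists belonged to ST6GAL2, a sialyltransferase of N-glycans (0.21, adjusted p = 0.0719 in edgeR), SMPD1, the acid sphingomyelinase (-0.13, adjusted p = 0.0737), and NANS, the sialic acid synthase (-0.17, adjusted p = 0.0848). In F2 DEGS2, a ceramide desaturase, and GM2A, the activator of GM2 breakdown, were among the genes with the smallest p-values, with log2 fold changes of 0.26 and 0.10 (adjusted p = 0.756 for both in edgeR). Of the 13 tested genes of ganglioside and glycolipid breakdown, 0 passed in F1 and 0 in F3, and 8 were negative in each.

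**Figure D3:**
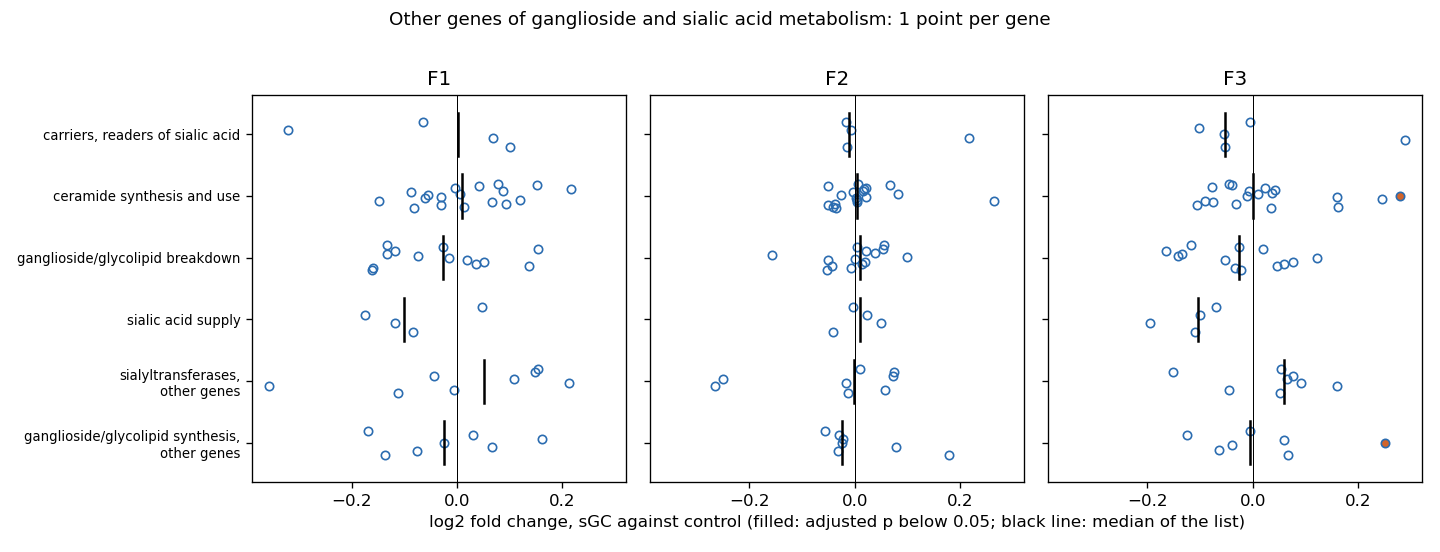
log2 fold change of sGC against control (horizontal axes) for each gene of the 6 lists (rows) in F1, F2 and F3, with the median of each list as a black line and filled points where the adjusted p was below 0.05. The 2 filled points in F3 are SPTSSA at 0.28 and B3GALT4 at 0.25, and all 4 points of sialic acid supply lie below 0 in F3.

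In bulk hippocampal tissue, fewer cells of a type and less RNA per cell cannot be told apart. Marker lists of cell types were compared within each generation, where 2.03%, 0% and 5.01% of all genes passed in F1, F2 and F3. The 9 astrocyte markers were all higher in sGC animals of F3, 4 of them past the threshold, with a summed level of 9424 to 10406 CPM in control and 10636 to 12253 CPM in sGC animals. In F1 all 9 were higher and 1 passed, and in F2 7 were higher and 0 passed. The 7 inhibitory neuron markers were all lower in F3, 2 past the threshold, with summed levels of 701 to 782 CPM and 616 to 710 CPM in control and sGC animals. The 7 meningeal fibroblast markers were all lower in F1, 1 past the threshold, at 97.5 to 276 CPM in control and 67.2 to 135 CPM in sGC animals. In F3 all 7 were higher and 0 passed, with a median log2 fold change of 0.18, and in F2 5 were lower and 0 passed. Of 3 thalamic neuron markers, 1 passed in F3, higher in sGC animals, and 0 in F1 and F2. No marker of the remaining lists passed. Excitatory neuron markers were lower for 7 of 9 in F1 and in F3. Microglial markers were higher for 5 of 6 in F1 and 6 of 6 in F3, and endothelial markers for 3 of 5 and 5 of 5. Oligodendrocyte markers were lower for 5 of 5 in F1 and 2 of 5 in F3. The part of these cell types in the values of the listed genes was not tested.

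How the genes varied from animal to animal was described by the correlation of log2 CPM after the mean of each generation and exposure group was subtracted, over the 36 libraries. These points share library depth and composition, and no p is given. ST3GAL2 and ST6GALNAC6 were the closest pair, with Pearson's r of 0.73 and Spearman's rho of 0.68, and r of 0.88, 0.59 and 0.82 within F1, F2 and F3. It was 0.79 without the 2 libraries farthest from the median of ST3GAL2 and 0.67 without F1 sGC replicate 4. The next pair, ST6GALNAC5 and ST8SIA3, had r of 0.47 overall but -0.10 within F2. Of the 36 pairs, 24 were negative, and the lowest was ST3GAL2 with ST8SIA5, at -0.42 overall and -0.52, -0.33 and -0.43 within F1, F2 and F3. ST3GAL5 was negative with ST8SIA5 (-0.38) and with ST8SIA3 (-0.40). In 13 pairs the sign was the same in all 3 generations.

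**Figure D4:**
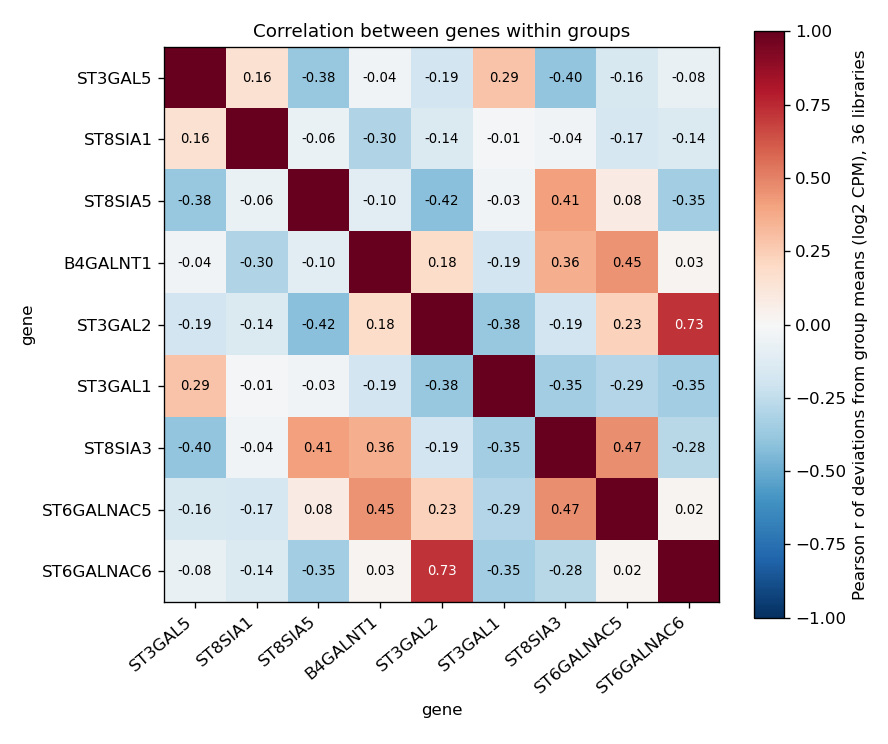
Pearson's r between the 9 genes in all tables, over 36 libraries, from deviations of log2 CPM from the group means, with red for positive and blue for negative values. ST3GAL2 and ST6GALNAC6 stand out at 0.73, and ST3GAL2 with ST8SIA5 is the most negative pair at -0.42.

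Against the mean deviation of the marker lists, B4GALNT1 and ST6GALNAC5 had r of 0.60 and 0.55 with hippocampal excitatory neuron markers, and 0.67 and 0.45 without the 2 libraries farthest from each gene's median. ST3GAL5 had r of 0.45 and ST3GAL2 -0.55 with inhibitory neuron markers, 0.42 and -0.41 without those libraries. ST6GALNAC6 had r of 0.48 with astrocyte and 0.55 with microglial markers, which fell to 0.37 and 0.34, and of -0.53 with oligodendrocyte markers, which was -0.49 without those libraries. With meningeal fibroblast markers, r was -0.60 for ST6GALNAC5, -0.50 for ST8SIA3 and -0.46 for B4GALNT1. ST3GAL1 had 0.56 with markers of oligodendrocyte precursors and 0.50 with those of thalamic neurons, B4GALNT1 -0.53 with the latter, and ST8SIA3 -0.48 with microglial markers. All other values lay between -0.45 and 0.45.

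The genes whose deviations were most like those of each listed gene were found over all genes tested in the 36 libraries. Picking the highest of so many correlations raises their values, and no reference for this was computed. For ST3GAL5 they were WNT10B (r = 0.74), CPLX3 (0.73) and SIAH2 (0.69). ST8SIA1 was closest to DCT (0.72), Brs3 (0.60) and PEX5L (0.57), which were 0.65, 0.56 and 0.57 without the 2 libraries farthest from its median. ST8SIA5 was closest to BRAF (0.80), GRIN2A (0.77) and SYNCRIP (0.74). ST8SIA3 followed SCN7A (0.84), EPHA4 (0.84) and ERC2 (0.82). The nearest genes to B4GALNT1 were ACKR1 (0.85), WARS (0.84) and PRKAR1B (0.84). ST3GAL2 lay nearest to SLC1A6 (0.76), PPP1R9B (0.75) and RTN2 (0.75), and ST3GAL1 to CUX2 (0.81), FAM83H (0.77) and SCUBE1 (0.74). ST6GALNAC5 followed WSCD2 (0.77), AREL1 (0.75) and PPP3CB (0.74). The highest values belonged to ST6GALNAC6, with BRSK1 (0.91), JPH3 (0.89) and NSMF (0.89), which were 0.82, 0.78 and 0.80 without the 2 libraries farthest from its median.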

How the data were processed

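The deposited files hold whole-number read counts for each gene in each library, 1 table per generation, which the authors did not normalize. Their submission names TopHat2 and edgeR, and the genome build and read counter used for RNA are not given in the sources used here. Beside the counts stand the authors' own comparisons (log2 fold change, average log2 CPM, likelihood ratio, dispersion, p-value and FDR), which were not used. The bisulfite capture tables hold only comparisons made by the authors with methylKit and were not used. Groups came from the labels.

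Counts were analysed with R 4.3.3 and edgeR 4.0.16: filterByExpr, TMM scaling, and the robust quasi-likelihood test within each generation, with Benjamini-Hochberg adjustment over all genes tested and a threshold of 0.05. Differences between generations, the mean effect and control levels came from 1 fit over 36 libraries and the genes in all tables. Standard errors were computed back from the log2 value and the F statistic of the test. Correlations used log2 CPM with a prior count of 2. Alternatives were the likelihood ratio test, DESeq2 1.42.0, RLE size factors, no filter, all generations together, a replicate block, and leaving out libraries. The test without robust estimation, and the alternatives to the mean effect (but not that effect itself), were added after the data were seen. The fits were tested on simulated counts, with changes larger than those of the listed genes. How many changes of the size described here would be found was not tested. Depth was 13507449 to 19767033 reads per library. Pairs of libraries of a group differed by a chi-square per degree of freedom of 2.15 to 29.5, so none was counted as a duplicate. Figures were drawn with matplotlib.

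The genes and lists were chosen with earlier results of these data known. All 10 listed genes are named. Of the pathway lists, the genes past the threshold are named, or the 3 with the smallest unadjusted p where none passed, of which 1 in F2 is not reported here. For each listed gene the 3 most correlated genes are named.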

Additional observations from a re-analysis of the deposited data

Results flagged for a closer look

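Of the 56 combinations of gene and group looked at with Dixon's test, 2 held an animal far from the others, and chance alone gives about 1 in 20. ST6GALNAC6 in F1 sGC replicate 4 was at 179 CPM, where the other 4 sGC animals lay between 117 and 130 CPM. ST3GAL1 in F2 sGC replicate 3 was at 12.7 CPM, where the other 5 lay between 10.1 and 11.0 CPM.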

How the results depend on the processing

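The number of listed genes past the threshold in F1, 1 in the reported test, was 2 with the likelihood ratio test, 3 with DESeq2, 3 with all generations fitted together, 0 without the libraries numbered 32 to 36, and 0 to 2 when 1 animal was left out. Of all genes in F1, 2.03% passed in the reported test, 5.26% with the likelihood ratio test and 5.78% with DESeq2. In F3, where it was 2, it was 4 with the likelihood ratio test, 4 with DESeq2, 1 with RLE size factors, 1 with no filter and 1 to 3 when 1 animal was left out. The mean effect over generations passed for 4 genes, for 0 without the libraries numbered 32 to 36, and for 2 to 4 when 1 animal was left out. Differences between generations passed for 0 genes, and F2 against F1 for 2 with DESeq2 and for 0 to 2 when 1 animal was left out (2 without F2 sGC replicate 6). F3 against F1 passed for 1 without the libraries numbered 32 to 36 and for 0 to 1 when 1 animal was left out. Genes of the other lists passed 0 times in F1, but 3 with the likelihood ratio test, 4 with DESeq2, 6 with all generations together and 0 to 2 when 1 animal was left out, and 2 times in F3, but 5 with DESeq2, 1 with all generations together and 2 to 4 when 1 animal was left out. The cause of these changes was not tested.

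Over all genes, the 231 of F1 became 598 with the likelihood ratio test, 658 with DESeq2, 834 with all generations together, 119 without the libraries numbered 32 to 36 and 60 (without sGC replicate 5) to 342 (without sGC replicate 4) when 1 animal was left out. The 569 of F3 became 944 with DESeq2, 292 with all generations together, 327 without those libraries and 305 to 657 when 1 animal was left out. Differences between F2 and F1 passed for 31 genes, 168 with the likelihood ratio test, 270 with DESeq2, 4 with the block, 97 without those libraries and 0 to 216 when 1 animal was left out. For F3 against F1 the 0 became 58, 67, 0, 415 and 0 to 458, and the 956 of the mean effect became 46 without those libraries, 1701 for the mean of F1 and F3 only, and 531 to 1189 when 1 animal was left out. In F2 the count of 0 in edgeR's quasi-likelihood test was 6 with the likelihood ratio test and 12 with DESeq2, and 748 genes had an unadjusted p below 0.05.

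A replicate block for the number in the labels gave 0 listed genes in F1 and 0 in F3, with adjusted p of 0.0905 and 0.155 for ST3GAL5 and 0.0791 for ST3GAL2 in edgeR, and 74 of all genes in F1 and 1.66% of them in F3. Between animals with the same number, the correlations of deviations ran from -0.07 to 0.30 in F1, -0.37 to 0.19 in F2 and -0.29 to 0.02 in F3. In these generations 1, 0 and 0 libraries were closest to their own number. With so few pairs, these values cannot show whether the number marks a pairing. ST3GAL5 (F1 and F3 signs known when listed) kept them in every fit, as others did. Without the libraries numbered 32 to 36, the sign turned for ST6GALNAC5 (0.028) and ST6GALNAC6 (-0.0019, in place of 0.15) in F1. Under the block, it turned for ST8SIA1 in F3 (0.0083). When 1 animal was left out, it turned for ST6GALNAC5 in F1 (-0.056 to 0.021). In F2 it turned for ST3GAL5 (-0.0084 to 0.028), ST8SIA1 (-0.087 to 0.039) and B4GALNT1 (-0.032 to 0.0047). In F3 it turned for ST3GAL1 (-0.13 to 0.0044) and ST8SIA1 (-0.080 to 0.079). Planned comparisons of control levels with F2 were not reported, because its table differs from the others in the genes it lists and in many levels. ST8SIA1 and ST3GAL1, with 74 to 259 reads per library, had standard errors of 0.0852 to 0.133, and even the F1 change of 0.44 for ST8SIA1 did not pass. How much of this error is read depth and how much is spread between animals was not tested.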
